A study of Mus musculus with 6 samples.

Results

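Collagen genes, those whose symbol has the form Col, a type number, the letter a and a chain number, were followed in F4/80+ cells isolated from tumours implanted in mice. Of 19938 genes measured with a probe set of 1 symbol, 44 were collagen genes. They comprised 11 fibrillar, 6 basement membrane, 2 multiplexin, 9 FACIT (fibril-associated, with interrupted triple helices), 6 beaded filament, 3 short chain network and 4 transmembrane collagens, and 3 others. Cells came from tumours in wild type hosts (3 samples) or in St2-/- hosts (3 samples), which lack ST2, the receptor for the cytokine IL-33. F4/80, the protein used to isolate the cells, is a surface marker of mouse macrophages. The labels give the genotype of the host mouse and do not state the tumour, its genotype, the time after implantation or the age and strain of the mice. Separate animals are not named for the samples either, and the p-values therefore cover the variation among these samples alone, part of which may be technical. Each sample was measured on 1 array, and with 3 arrays in a group precision is limited by that number.

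Collagens are secreted or membrane proteins of 3 chains wound into a triple helix. Fibrillar collagens give tissue its tensile strength, type IV collagen forms the sheet of the basement membrane, and type VI collagen forms fine beaded filaments beside cells. Fibroblasts, pericytes and endothelial cells are the main producers in tumours, and macrophages are also known to make some collagens, among them types VI and VIII.

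Values are the deposited log2 values, and differences are St2-/- minus wild type on that scale, with the standard error (SE) of the limma fit. A gene was called higher or lower at a Benjamini-Hochberg adjusted p under 0.05 over all genes. The median level of all genes was 5.88 to 5.93 in the wild type samples and 5.81 to 5.82 in the St2-/- samples. Samples of the same group correlated at 0.996 to 0.998 across genes, and samples of different groups at 0.986 to 0.988. The genotypes were not checked on the gene of ST2, for which the platform annotation used here gave no probe set of its own. The labelled cell type was checked on 12 measured macrophage markers, none of which lay in the dimmest 40% of genes. Adgre1, the gene of F4/80, was called higher, with means of 11.32 in wild type and 11.63 in St2-/-, and Cd68, a lysosomal protein of macrophages, averaged 12.57 and 12.53 and was not called. Of the other macrophage markers Msr1 (-0.76), Mertk (-0.72), Lyz2 (-0.71) and Cd14 (-0.35) were called lower and Fcgr1 (0.36) higher.

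More collagen genes were called lower than higher in cells from St2-/- hosts. Of the 44 genes, 15 were lower (34.1%), 2 higher (4.55%) and 27 not called. Over all genes 10.0% were called lower and 10.7% higher (20.8% in all). With arrays centred on their median, 1294 genes were lower and 3686 higher in place of 1998 and 2142. Of the 7983 genes in the dimmest 40%, 7473 were not called, against 8325 of the other 11955. As 40 of the 44 members lay among the brighter genes, the shares over all genes are a low measure for them. With the dimmest 40% left out before testing, 17 of 40 members were lower and 2 higher, against 1949 and 2556 of 11955 genes. Col6a1, Col6a2 and Col6a3 of type VI collagen fell by at least 2-fold, and the next differences in size were those of Col4a1 of the basement membrane (-0.94), Col8a1 of the short chain network (-0.89) and Col4a2 (-0.81). Col14a1 and Col1a2 were the 2 members called higher. The median difference of the members was -0.18, against -0.02 over all genes, and 40 of the 44 differences were below 0. With arrays centred on their median these medians were -0.09 and 0.07, 28 of the 44 differences were below 0, and 11 members were lower and 2 higher. After cyclic loess 33 were below 0, and 14 members were lower and 2 higher, against 1964 and 1729 of all genes. Every St2-/- sample lay below every wild type sample for 18 members (40.9%), where 18.3% of all genes did so, and above for 2, where 18.1% of all genes did. The groups thus did not overlap for 20 members, as for 36.4% of all genes. A call favours groups that do not overlap, so groups apart in a called gene are no further support for its call. A fall of at least 2-fold was called in 3 members and in 0.878% of all genes.

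**Figure D1:**
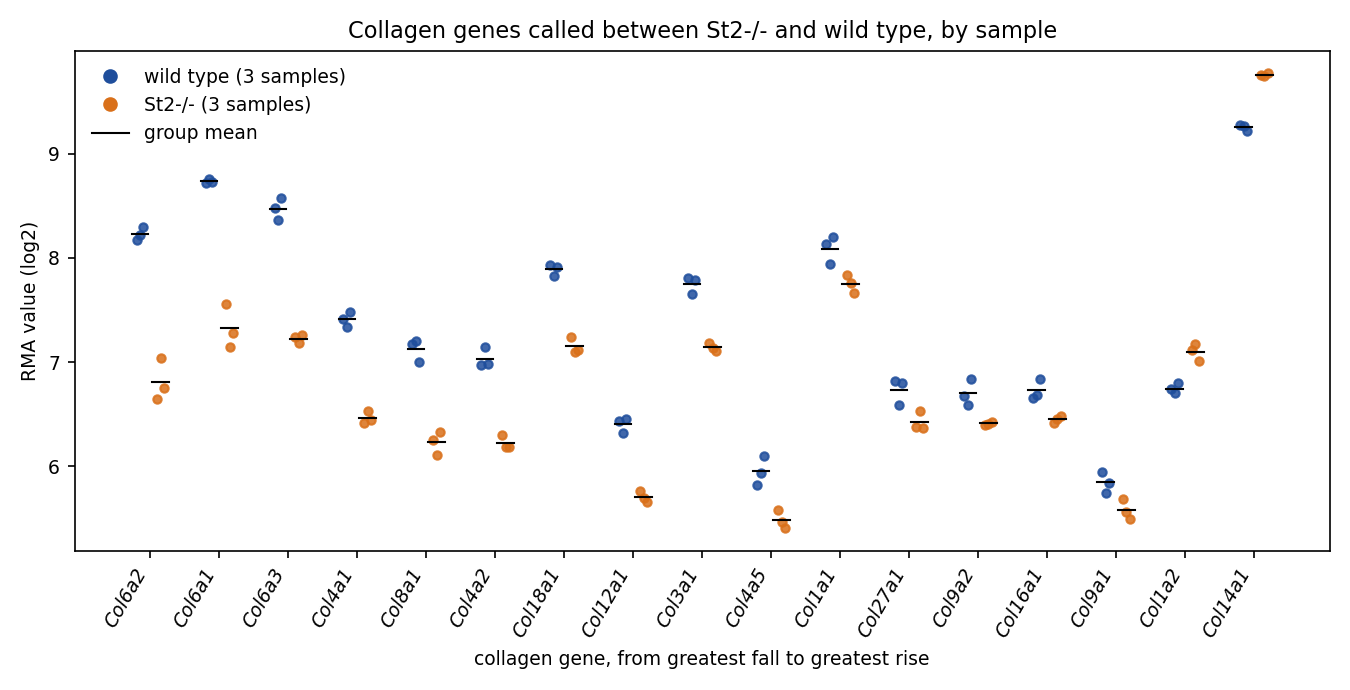
Log2 RMA values (vertical axis) of the 17 collagen genes called between the groups, with blue points for the 3 wild type samples, orange points for the 3 St2-/- samples and black lines for group means. The groups do not overlap in any of the 17 genes, which were picked by their call, and a call favours groups that do not overlap. The orange points lie above the blue ones only for Col1a2 and Col14a1.

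Type VI collagen showed the largest changes among the members. Its classical trimer joins the chains encoded by Col6a1, Col6a2 and Col6a3, which assemble into microfibrils around cells. Col6a2 (probe set 10370180) measured 8.17, 8.22 and 8.30 in the wild type samples and 6.65, 7.04 and 6.75 in the St2-/- samples. The group means were 8.23 ± 0.07 and 6.81 ± 0.20 (SD, n = 3), and the gene was 2.67-fold lower in St2-/- (adjusted p = 9.11e-06, limma). The lowest wild type sample stood 1.13 above the highest St2-/- sample. Col6a1 (probe set 10370210) measured 8.72, 8.76 and 8.73 in wild type and 7.56, 7.15 and 7.28 in St2-/-, a difference of -1.41 ± 0.10 (SE; limma adjusted p = 9.11e-06). Col6a1 and Col6a2 had nearly equal values within the wild type group and a wider spread within the St2-/- group. For Col6a1 the SD was 0.02 in wild type and 0.21 in St2-/-, the latter the widest among the members of that group. Col6a3 (probe set 10356520) measured 8.48, 8.36 and 8.58 against 7.24, 7.18 and 7.26, which is 2.37-fold lower (adjusted p = 2.87e-06, limma). All samples of the 3 chains were thus lower in St2-/- by more than 1 log2 unit at the nearest pair of samples.

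None of the other type VI chain genes, which encode chains that can take the place of the third chain, was called. Over all genes 20.8% were called, and 3 genes are too few to be set apart from that share. Col6a4, Col6a5 and Col6a6 lie side by side on chromosome 9 in the reference gene order. Their differences were -0.07 ± 0.08, -0.24 ± 0.10 and -0.03 ± 0.07 (SE), and none was called. The groups overlapped for each of them. Col6a5 and Col6a6 each had a second probe set, which differed by 0.00 and -0.04 and was not called. Col6a2 and Col6a1 are direct neighbours on chromosome 10, with no protein-coding gene between them, and 2 such genes separate Col6a1 from Col18a1.

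The stretches before the start of 4 members are shown because these genes either fell together as neighbours (Col6a1 and Col6a2) or moved apart within the fibrillar class (Col3a1 and Col1a2). Each is the 250 bases upstream of the outermost annotated start in RefSeq (GRCm38.p6), read 5′ to 3′ on the strand of the gene. Col6a1 lies on the minus strand (chr10:76726045-76726294) and so does Col6a2 (chr10:76623631-76623880). Col3a1 (chr1:45311288-45311537) and Col1a2 (chr6:4505368-4505617) lie on the plus strand. Capitals mark the CCAAT box (CCAAT or ATTGG), the GC box (GGGCGG or CCGCCC) and the TATA motif (TATAAA or TTTATA), each searched on both strands; a CCAAT box and a GC box may share bases.
Col6a1: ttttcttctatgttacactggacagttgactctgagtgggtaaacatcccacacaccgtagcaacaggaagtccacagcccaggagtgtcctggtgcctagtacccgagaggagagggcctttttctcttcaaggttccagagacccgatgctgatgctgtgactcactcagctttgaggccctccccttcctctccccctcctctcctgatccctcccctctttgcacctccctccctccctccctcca
Col6a2: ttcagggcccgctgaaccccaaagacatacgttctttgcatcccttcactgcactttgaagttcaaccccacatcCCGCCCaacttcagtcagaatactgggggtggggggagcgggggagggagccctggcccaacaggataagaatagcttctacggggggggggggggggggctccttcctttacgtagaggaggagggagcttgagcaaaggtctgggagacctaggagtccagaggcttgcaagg
Col3a1: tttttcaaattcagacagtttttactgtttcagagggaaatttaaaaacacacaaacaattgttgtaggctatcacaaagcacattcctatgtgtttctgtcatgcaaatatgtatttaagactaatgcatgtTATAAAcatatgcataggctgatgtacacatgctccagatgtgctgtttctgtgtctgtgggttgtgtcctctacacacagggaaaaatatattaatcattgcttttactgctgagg
Col1a2: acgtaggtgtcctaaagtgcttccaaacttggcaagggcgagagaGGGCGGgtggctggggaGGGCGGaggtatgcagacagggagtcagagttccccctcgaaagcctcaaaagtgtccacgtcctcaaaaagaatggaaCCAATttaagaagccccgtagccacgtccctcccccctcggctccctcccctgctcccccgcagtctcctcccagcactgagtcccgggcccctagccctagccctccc
The Col6a1 stretch held none of these letters and the Col6a2 stretch held 1 GC box. The Col3a1 stretch held 1 TATA motif, from 117 to 112 bases before the start, and no other of the motifs. The Col1a2 stretch held 1 CCAAT box and 2 GC boxes. Of 38 upstream stretches of 35 collagen genes, 22 held a GC box (57.9%), where 32.7% of 32851 such stretches over all genes did. A CCAAT box was found in 34.2% of the collagen stretches and 33.8% of all, and a TATA motif in 13.2% and 12.4%. A match of letters is a description and not a bound site.

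Of 11 fibrillar collagens 3 were lower (27.3%, against 10.0% of all genes), 1 higher (9.09%, against 10.7%) and 7 not called. These chains build the cross-banded fibrils of connective tissue. Col3a1, which encodes the chain of type III collagen of pliable tissues, measured 7.81, 7.65 and 7.79 in wild type and 7.18, 7.14 and 7.11 in St2-/-. The gene was 1.52-fold lower in St2-/- (difference -0.61 ± 0.07 SE, limma adjusted p = 0.000181), and the nearest samples of the groups were 0.47 apart. Col1a1 and Col1a2 encode the chains of type I collagen, the main protein of tendon, bone and scar. Col1a1 measured 8.13, 7.94 and 8.20 in wild type and 7.84, 7.76 and 7.66 in St2-/-, a fall from 8.09 ± 0.13 to 7.75 ± 0.09 (SD, n = 3; limma adjusted p = 0.0192). Col1a2 measured 6.74, 6.70 and 6.80 in wild type and 7.12, 7.17 and 7.01 in St2-/-, which is 1.28-fold higher (adjusted p = 0.00532, limma). The partner genes thus moved in opposite directions, each with groups that did not overlap. The call of Col1a1 was lost with fewer samples while its difference stayed between -0.34 and -0.28: its limma adjusted p was 0.0628 and 0.0619 without wild type replicate 1 or 3, and 0.0553 and 0.0788 without St2-/- replicate 2 or 3. In a fit over all rows of the table it was 0.0577. The call of Col1a2 was kept under every alternative tried.

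Col27a1, whose chain is known from cartilage, was the other fibrillar gene called lower (6.74 ± 0.13 against 6.43 ± 0.09, SD, n = 3; limma adjusted p = 0.0257). Its nearest samples were only 0.06 apart. Its limma adjusted p was 0.0852 and 0.0764 without wild type replicate 1 or 3, and 0.0842 and 0.0933 without St2-/- replicate 1 or 3, with differences from -0.29 to -0.27. It was also 0.0667 with arrays centred on their median, 0.0686 in a fit over all rows of the table and 0.0595 with the replicate number as a block. Type V collagen, which sets the diameter of type I fibrils, showed differences of -0.13 ± 0.08 for Col5a1, -0.07 ± 0.09 for Col5a2 and -0.10 ± 0.07 for Col5a3 (SE), and the cartilage genes Col2a1, Col11a1 and Col11a2 lay between -0.19 and -0.07. Col24a1 differed by -0.08 ± 0.10 (SE). The groups overlapped in all 7 of these genes.

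Of the 6 type IV chains of the basement membrane 3 were lower (50%, against 10.0% of all genes). Col4a1 and Col4a2 encode the chains of the trimer found in nearly all basement membranes, including those of vessels. Col4a1 (probe set 10576973) measured 7.41, 7.34 and 7.48 in wild type and 6.42, 6.53 and 6.45 in St2-/-, which is 1.92-fold lower (difference -0.94 ± 0.07 SE, limma adjusted p = 1.05e-05). Col4a2 (probe set 10570068) measured 6.97, 7.15 and 6.98 in wild type and 6.30, 6.19 and 6.19 in St2-/-, which is 1.75-fold lower (adjusted p = 4.88e-05, limma). Neither gene had overlapping groups, and their nearest samples were 0.81 and 0.67 apart. Col4a1 and Col4a2 lie on opposite strands with a shared start region on chromosome 8, and their RefSeq start sites are 21 bases apart. Col4a5 measured 5.82, 5.94 and 6.10 in wild type and 5.58, 5.47 and 5.41 in St2-/- (limma adjusted p = 0.00376).

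The remaining type IV genes did not pass the test, and 3 genes are too few to be set apart from the 20.8% called over all genes. Col4a3 and Col4a4 encode partner chains of Col4a5 in the kidney filter, and Col4a6 encodes its partner in some epithelia. Col4a3 differed by -0.03 ± 0.06 and Col4a6 by -0.07 ± 0.08 (SE). Col4a4 had the smallest difference among members in the brighter 60% of genes: it measured 5.87, 5.86 and 5.76 in wild type and 5.86, 5.95 and 5.69 in St2-/-, a difference of 0.00 ± 0.08 (SE). The groups overlapped for all 3 genes.

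The multiplexins sit at the outer face of basement membranes and release fragments that restrain vessel growth, endostatin in the case of type XVIII. Col18a1 measured 7.93, 7.83 and 7.91 in wild type and 7.24, 7.10 and 7.12 in St2-/-, which is 1.67-fold lower (adjusted p = 5.15e-05, limma). Col15a1 measured 7.15, 7.01 and 7.04 against 7.04, 7.02 and 6.95, a difference of -0.06 ± 0.07 (SE) that was not called. The groups were apart for Col18a1 and overlapped for Col15a1.

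**Figure D2:**
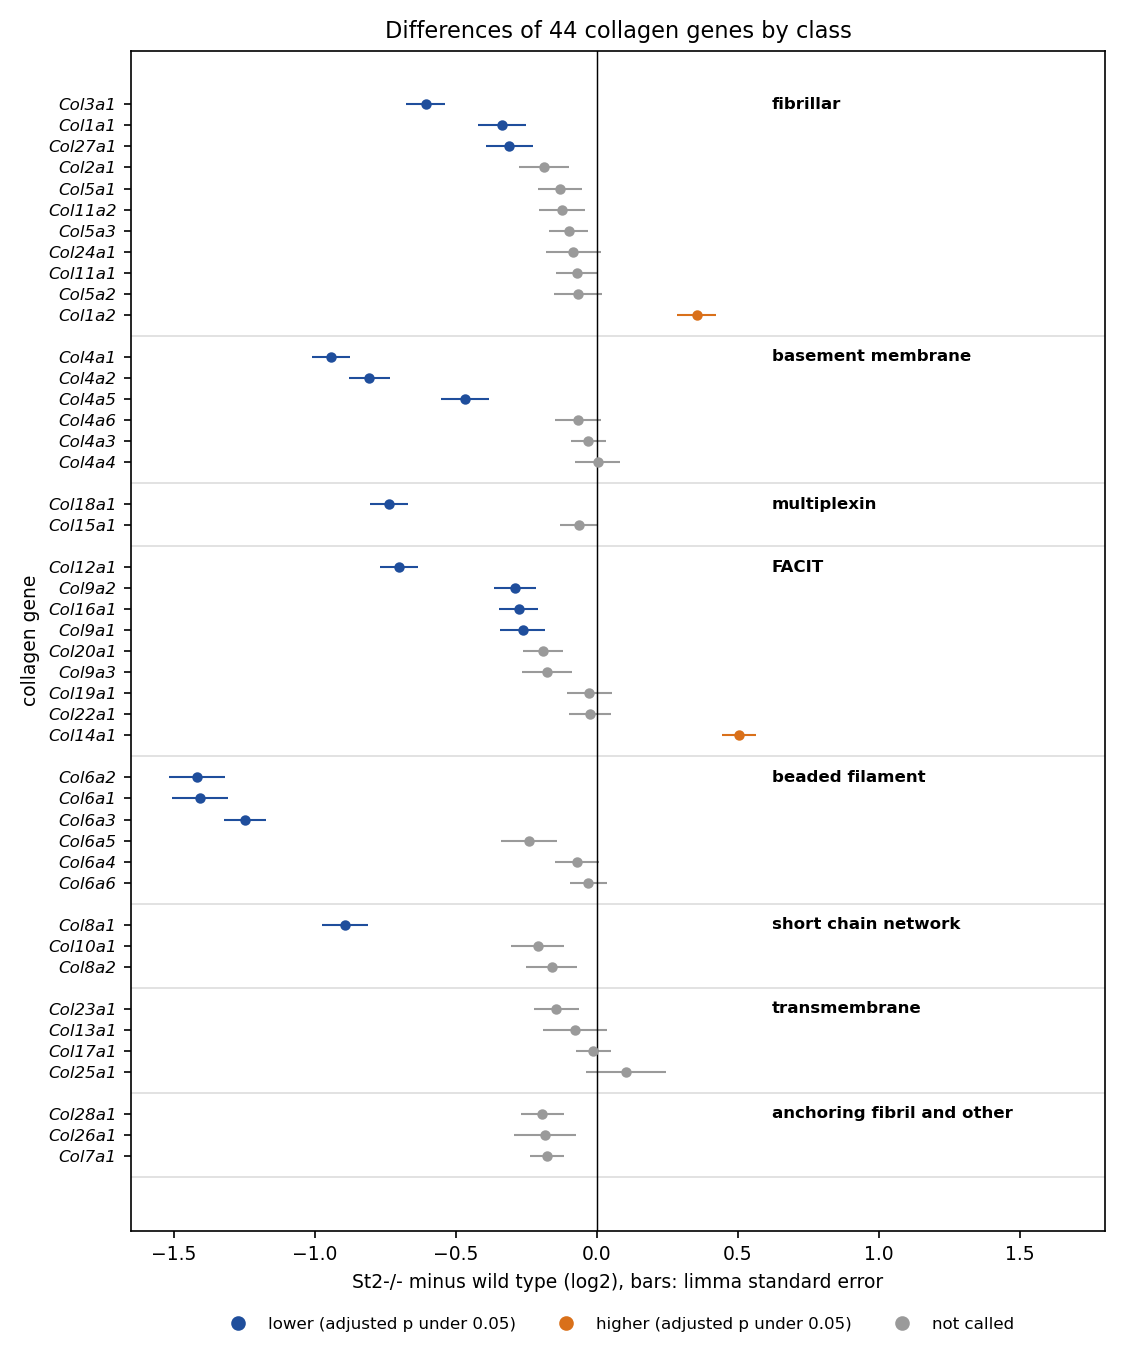
Difference of each of the 44 collagen genes (St2-/- minus wild type, log2, horizontal axis) by class, with bars for the limma standard error. Blue marks the 15 genes called lower, orange the 2 called higher and grey the 27 not called; the type VI genes Col6a1, Col6a2 and Col6a3 lie farthest left.

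FACIT collagens, which attach to the surface of fibrils, split into 4 called lower (44.4%, against 10.0% of all genes), 1 called higher (11.1%, against 10.7%) and 4 without a call. Col12a1, whose chain links fibrils under tension, measured 6.44, 6.32 and 6.46 in wild type and 5.76, 5.70 and 5.66 in St2-/-, which is 1.62-fold lower (adjusted p = 6.97e-05, limma). Col14a1, which encodes a close relative of the type XII chain, moved the other way. It measured 9.28, 9.27 and 9.22 in wild type and 9.76, 9.75 and 9.77 in St2-/-, a difference of 0.50 ± 0.06 (SE) that is 1.42-fold higher (adjusted p = 0.000253, limma). Its values within a group lay close together, with an SD of 0.03 in wild type and 0.01 in St2-/-, and the nearest samples of the groups were 0.47 apart. The directions of Col12a1 and Col14a1 were kept under both other scalings tried.

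The other FACIT calls were small and were lost with fewer samples, while the differences kept their direction. Col16a1 measured 6.66, 6.69 and 6.84 against 6.42, 6.46 and 6.48 (difference -0.28 ± 0.07 SE, limma adjusted p = 0.0196). Its limma adjusted p was 0.0547 without wild type replicate 3, 0.0688, 0.0553 and 0.0519 without St2-/- replicate 1, 2 or 3, and 0.0757 with arrays centred on their median. Its differences without these replicates were -0.22 and -0.26, -0.28 and -0.29. The type IX genes Col9a1 and Col9a2, known from cartilage, differed by -0.26 ± 0.08 and -0.29 ± 0.08 (SE), with limma adjusted p = 0.0409 and 0.0229. Col9a2 measured 6.68, 6.59 and 6.84 in wild type and 6.40, 6.41 and 6.43 in St2-/-, and Col9a1 measured 5.95, 5.75 and 5.84 against 5.69, 5.56 and 5.50. Neither pair of groups overlapped, by a margin of 0.16 for Col9a2 and 0.06 for Col9a1.
For Col9a2 the limma adjusted p was 0.0511 and 0.06 without wild type replicate 1 or 3, and 0.0697, 0.0658 and 0.0621 without St2-/- replicate 1, 2 or 3, with differences from -0.30 to -0.22. For Col9a1 it was 0.125 and 0.0819 without wild type replicate 1 or 3, and 0.112 and 0.145 without St2-/- replicate 2 or 3, with differences from -0.27 to -0.21. Centring arrays on their median gave 0.0686 for Col9a2 and 0.133 for Col9a1, and cyclic loess gave 0.107 for Col9a1. In a fit over all rows of the table they were 0.0581 and 0.0898. Col9a3 (-0.18 ± 0.09 SE) and Col20a1 (-0.19 ± 0.07 SE) were not called, nor were Col19a1 and Col22a1 at -0.03 and -0.02.

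Of the short chain network genes, Col8a1, which encodes a chain of the lattice under vascular endothelium, was lower. It measured 7.17, 7.20 and 7.0 in wild type and 6.25, 6.11 and 6.33 in St2-/-, which is 1.86-fold lower (difference -0.89 ± 0.08 SE, limma adjusted p = 5.24e-05). Its partner Col8a2 differed by -0.16 ± 0.09 (SE) with overlapping groups. Col10a1, known from growth plate cartilage, differed by -0.21 ± 0.09 (SE) with a limma adjusted p of 0.155, and 0.0412 without St2-/- replicate 1. None of the 4 transmembrane collagens was called by limma (0 at an unadjusted p under 0.05), where 20.8% of all genes were called. A class of 4 is too small to be set apart from that share. Col13a1, Col17a1, Col23a1 and Col25a1 lay between -0.14 and 0.10. Col25a1, whose chain was first known from brain, had the widest wild type spread among the members, with an SD of 0.35, and measured 5.35, 5.65 and 6.04 there. Col17a1, a hemidesmosome component of skin, measured 5.37, 5.48 and 5.41 in wild type and 5.43, 5.39 and 5.40 in St2-/-, a difference of -0.01 ± 0.06 (SE).

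The last 3 members were not called either, and 3 genes are too few to be set apart from the 20.8% called over all genes. Col7a1, which encodes the anchoring fibrils of skin, measured 6.80, 6.75 and 6.80 in wild type and 6.59, 6.65 and 6.58 in St2-/- (limma adjusted p = 0.07), and was the member nearest to the threshold from outside. Col26a1 and Col28a1 differed by -0.18 ± 0.11 and -0.19 ± 0.08 (SE). Every St2-/- sample lay below every wild type sample for Col7a1, Col20a1 and Col28a1, by 0.10, 0.02 and 0.01. These were 11.1% of the members not called, near the 10.5% found among all genes not called. Col7a1 and Col20a1 had adjusted p-values of 0.0302 and 0.0468 in limma when the dimmest 40% of genes were left out before testing. The 27 members that were not called had a median difference of -0.08, against -0.02 for all genes not called. Of the 44 members, 40 lay among the brighter 60% of genes, and Col4a6, Col5a2, Col10a1 and Col19a1 did not.

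Whether partner chains moved by unequal amounts was tested within arrays, on the log2 value of 1 gene minus that of the other. The pairs were chosen after their values were seen: 8 pairs of collagen genes that share a trimer or a genomic neighbourhood, and 4 pairs of a member with Dcn, the gene of the fibroblast proteoglycan decorin. Dcn had the smallest p of the fibroblast markers and was picked for it, so its pairs, which shifted by -3.68 to -1.92, restate its own fall and do not stand for the list. With 3 samples against 3 the smallest two-sided p of an exact permutation test is 0.1, so no pair could pass 0.05. Col1a1 minus Col1a2 was 1.39, 1.24 and 1.40 in wild type and 0.72, 0.59 and 0.65 in St2-/-, a shift of -0.69 (exact permutation p = 0.1; 0.171 adjusted over 12 pairs). The groups did not overlap. Every St2-/- sample lay below wild type for Col1a1 and above it for Col1a2, so this difference had to separate. It restates those values and is no further support for them. Col4a5 minus Col4a6 shifted by -0.40 and Col3a1 minus its genomic neighbour Col5a2 by -0.54, with the same p-values and no overlap between groups. Col4a6 and Col5a2 lie in the dimmest 40% of genes and differed by -0.07 each, so these shifts mostly restate the falls of Col4a5 and Col3a1. For Col4a1 minus Col4a2 the shift was -0.14, from 0.38 ± 0.16 to 0.24 ± 0.11 (SD, n = 3; exact permutation p = 0.3), with overlapping groups. Col6a1 minus Col6a2 shifted by 0.01, but ranged from 0.11 to 0.91 within the St2-/- group against 0.43 to 0.55 within wild type. The pairs Col6a1 and Col6a3, Col4a3 and Col4a4, and Col5a1 and Col5a2 shifted by -0.16, -0.03 and -0.06, with overlapping groups.

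**Figure D3:**
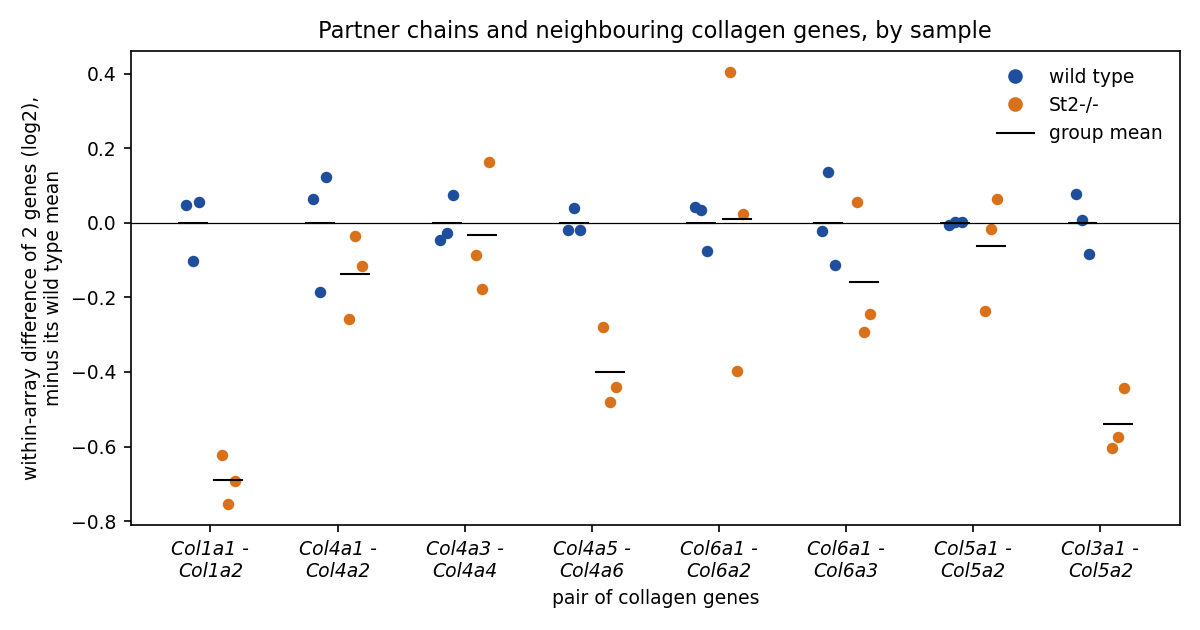
Within-array difference between the log2 values of a pair of collagen genes, minus its wild type mean (vertical axis), for 8 pairs, with blue points for wild type samples, orange points for St2-/- samples and black lines for group means. The orange points lie below all blue points for Col1a1 with Col1a2, Col4a5 with Col4a6 and Col3a1 with Col5a2, and overlap them for the other 5 pairs.

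Of 19 measured genes that modify and fold collagen chains in the endoplasmic reticulum 8 were called lower, 0 higher and 11 not called (42.1% lower, median difference -0.17; 10.0% and -0.02 over all genes). At an unadjusted p under 0.05 0 members were higher. Of the 47 genes in this and the following pathway lists, 33 lay in the brighter 60%, where calls were more frequent. With the dimmest 40% left out before testing, 19 of these 33 were lower and 3 higher, against 1949 and 2556 of 11955 genes. P3h2, a prolyl 3-hydroxylase that acts on basement membrane collagen, fell from 8.17 ± 0.06 to 7.06 ± 0.17 (SD, n = 3; limma adjusted p = 2.1e-05). Plod2, the lysyl hydroxylase that prepares stable crosslinks, fell by 0.94 on the log2 scale, and Serpinh1, the collagen chaperone HSP47, fell by 0.63. Crtap, a subunit of the prolyl 3-hydroxylase complex, fell by 0.62. The prolyl 4-hydroxylase genes P4ha1, P4ha2 and P4ha3, whose enzymes are needed for a stable helix, differed by -0.09, 0.05 and 0.00 and were not called.

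Of 11 measured genes that process or crosslink procollagen 5 were lower (45.5%) and 6 not called (median -0.27), where 10.0% of all genes were lower. Pcolce, the enhancer of procollagen C-proteinase, fell by 0.97 and Bmp1, which encodes that proteinase, by 0.67 on the log2 scale (limma adjusted p = 9.27e-05 and 0.00206). Loxl1, a lysyl oxidase relative, fell by 0.86 and Tll1, a relative of Bmp1, by 0.42. Lox itself differed by -0.08. Of 10 measured collagen receptors 4 were lower (40%, against the same 10.0%) and 6 not called (median -0.22). Ddr2, the receptor kinase for fibrillar collagens, fell from 8.74 ± 0.12 to 7.45 ± 0.16 (SD, n = 3; limma adjusted p = 1.22e-05). The related Ddr1 differed by -0.48 and the integrin gene Itga1 by -0.59, both called lower. Itga10 was called lower (-0.41, limma adjusted p = 0.0292), with 0.0835 and 0.0775 without wild type replicate 1 or 2, and 0.0635 and 0.0583 without St2-/- replicate 2 or 3, 0.0646 with centring, 0.0769 with cyclic loess and 0.089 over all rows. Lair1, an inhibitory collagen receptor of leukocytes, differed by 0.18, and Mrc2, the endocytic collagen receptor, by 0.00; neither was called.

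Of 7 genes of collagen breakdown 3 were lower (42.9%, against 10.0% of all genes) and 1 higher (14.3%, against 10.7%), with a median of -0.21. Mmp9, a gelatinase, fell by 0.92 on the log2 scale (limma adjusted p = 2.12e-05) and the lysosomal collagenase Ctsk by 0.42. Mmp13, the interstitial collagenase of mice, rose from 7.45 ± 0.03 to 8.01 ± 0.15 (SD, n = 3; limma adjusted p = 0.000958). Mmp2, the other gelatinase, was called lower (-0.38, limma adjusted p = 0.0135) and had 0.0503 without St2-/- replicate 2. Mmp14, a membrane-bound collagenase, differed by 0.16 and was not called.

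Some markers of cells that make collagen also differed between the groups beside the collagen genes. Of 16 fibroblast markers other than collagens 7 were lower (43.8%), 1 higher (6.25%) and 8 not called, against 10.0% lower and 10.7% higher over all genes, and the mean level of the list was 6.48 to 6.52 in wild type and 5.63 to 5.66 in St2-/-. Loxl1, lower, was also counted among the crosslinking genes, and Fap, not called, among those of collagen breakdown, so these lists are not separate. Dcn fell from 11.34 ± 0.05 to 8.01 ± 0.13, Lum, another matrix proteoglycan, by 3.56 on the log2 scale, and Pdgfra, a receptor that marks fibroblasts, was lower by a difference of -1.74. Thy1, Twist1 and Postn, further fibroblast markers, differed by -0.01, 0.00 and 0.19 and were not called, and Prrx1 was higher (0.27). Of 10 pericyte and smooth muscle markers 5 were lower (50%) and 5 not called, with Pdgfrb at -1.40 and Cspg4 at -1.06. Those not called were Acta2 (-0.16), Myh11 (-0.18), Des (-0.07), Tagln (-0.06) and Cnn1 (0.02). The mean level of that list was 6.45 to 6.46 in wild type and 5.92 to 6.01 in St2-/-. Of 12 endothelial markers 8 were lower (66.7%) and 3 higher (25.0%). Flt1 (-2.02) and Cdh5 (-1.46) were among the lower ones. Kdr (1.52), Pecam1 (0.89) and Eng (0.20, limma adjusted p = 0.0476) were higher. The mean level of the endothelial list was 6.39 to 6.51 in wild type against 6.02 to 6.05 in St2-/-. Array values have no true zero; 6 fibroblast, 3 pericyte and 4 endothelial markers lay in the dimmest 40% of genes. In bulk RNA fewer cells of a type and less RNA per cell cannot be told apart, and the part of these cells in the collagen differences was not tested.

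The counts for markers of other cells stand against the same shares of all genes, 10.0% lower and 10.7% higher. These shares are low for bright genes, and all 12 macrophage markers lay in the brighter 60%. Of 12 macrophage markers 4 were lower (33.3%) and 2 higher (16.7%), with a median difference of 0.00, and their mean level was 11.61 to 11.66 in wild type and 11.47 to 11.52 in St2-/-. Of 9 epithelial markers 1 was lower (11.1%, near the share of all genes; Krt8, -0.35; its limma adjusted p was 0.0657 with centring and 0.0622, 0.0605, 0.101, 0.0664 and 0.0764 without St2-/- replicate 1, 2 or 3 or wild type replicate 2 or 3), and Epcam, which differed by -0.06, lay in the dimmest 40% of genes. Adipocyte markers had 1 of 5 lower (20%; Fabp4), skeletal muscle markers 0 of 5 called by limma (0 at an unadjusted p under 0.05), and Schwann cell and melanocyte markers 1 lower (S100b) and 1 higher (Mbp) of 7 (14.3% each). Of 8 T and NK cell markers 5 were higher (62.5%), of 6 dendritic cell markers 3 were higher (50%) and 1 lower (16.7%; Cd209a, whose call was lost under 11 of the 14 alternatives that gave a value for it), and of 7 neutrophil markers 3 were lower (42.9%) and 1 higher (14.3%).

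**Figure D4:**
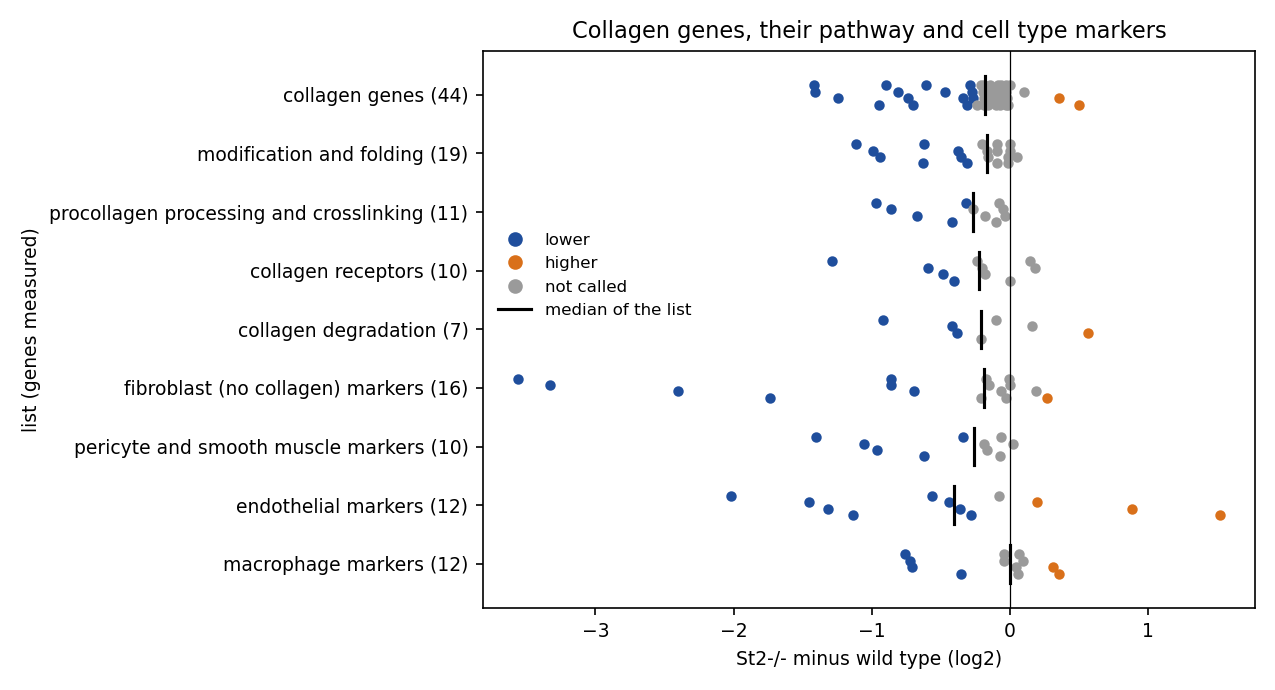
Differences of single genes (St2-/- minus wild type, log2, horizontal axis) in the collagen genes, 4 lists of their pathway and 4 lists of cell type markers, with blue for genes called lower, orange for higher, grey for not called and a black line at each list's median. The collagen genes reach from -1.42 to 0.50, with a median of -0.18, the fibroblast markers from -3.56 to 0.27 with a median of -0.19, and the macrophage markers from -0.76 to 0.36 with a median of 0.00.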

How the data were processed

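Total RNA of F4/80+ cells (3 wild type and 3 St2-/- samples) was run on Affymetrix Gene ST arrays, per the labels. The authors deposited RMA values, per the submitters' processing notes, which are read here as log2; their base, the version and the build are not given in the sources used. RMA equalises the arrays, which can hide a shift shared by most genes.

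Of 35556 probe sets, 21789 had 1 symbol in the platform annotation, 1621 several and 12146 none there. Each gene was represented by its brightest probe set on average over 6 arrays, which left 19938 genes. All 44 collagen genes matched the reference gene table by identifier. Groups were compared with limma 3.58.1 in R 4.3.3 (lmFit, eBayes, two-sided, Benjamini-Hochberg over all genes), with no filter on dim genes. On simulated data of 19938 genes 200 were changed in each of 20 draws. There limma found 5.1% of true log2 changes of 0.25, 63.6% at 0.5, 95.1% at 1 and 100% at 2, with 3.2% false calls. Far fewer genes changed there than the 4140 called here, and the adjusted threshold depends on that number. These rates therefore do not give the share of changes found in these data.

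Every collagen gene is named; of other lists, up to 4 called members with the smallest p, and others were chosen after their values were seen. The members and lists were chosen with earlier results of these data known. Alternatives were median centring, cyclic loess, a trend or robust prior, array weights, mean of probe sets, all rows, no dim genes, the replicate block and leaving out each array. Upstream sequences came from RefSeq (GRCm38.p6), which held 35 of the 44 genes.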

Additional observations from a re-analysis of the deposited data

How the results depend on the processing

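Of the 17 collagen genes called, 12 kept their call and direction under all 15 alternatives run, and Col1a1, Col9a1, Col9a2, Col16a1 and Col27a1 lost it under 1 or more, without a change of direction. Of the 27 not called, 3 (Col7a1, Col10a1 and Col20a1) passed under 1 alternative each, and 14 others changed sign without being called. The count of collagen genes called lower was 14 after cyclic loess, 11 under median centring, 11 over all rows of the table, 17 without the dimmest 40% of genes, and 10 to 15 when single arrays were left out, which also leaves fewer samples; 2 were called higher under every alternative. The median difference of collagen genes was -0.0867 under median centring, where the median over all genes was 0.07, and -0.21 to -0.12 without single arrays. Centring also gave 3686 genes higher and 1294 lower over all genes, against 2142 and 1998, so 74.0% of calls were higher against 51.7%. Pathway genes called higher were 3 with centring, with the trend prior and without the dimmest 40%, against 1. The replicate numbers did not pair the samples (correlations of deviations 0.01, -0.01 and -0.05). With the replicate number as a block 14 collagen genes were lower and 2 higher, against 1764 and 1807 of all genes. Col27a1 then had a limma adjusted p of 0.0595. Small differences are at the limit of 3 arrays a group.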
